A study of Mus musculus with 7 samples.

Results

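Slc6a2, Slc6a6, Slc6a8, Slc6a11, Slc6a13, Slc6a15 and Slc6a17 encode carriers of the SLC6 family, and they were 7 of the 52550 genes counted by total RNA-seq in mouse retina. They were chosen by their counts in this comparison, in which the noradrenaline carrier Slc6a2 was far higher and the taurine carrier Slc6a6 was lower in SCA7 retina than in WT retina. Their values by genotype are therefore given as a description, with a standard error and no test. All 7 genes passed the filter on low counts.

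The comparison set 4 WT mice against 3 homozygous SCA7 140Q/140Q knock-in mice, labelled SCA7_KI_homo, and all 7 mice were C57BL/6J and 12.5 weeks old. The knock-in carries an expanded CAG repeat in the Atxn7 gene itself, so mice of this line make ATXN7 with a long polyglutamine tract from the gene's own promoter in every cell that uses it, and homozygous mice have no Atxn7 allele of normal length. Spinocerebellar ataxia type 7 (SCA7) is the inherited disease caused by this expansion, in which the cerebellum and the photoreceptors of the retina degenerate. Each library was made from both retinas of 1 mouse, so replicates are mice, and the labels do not give their sex.

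Most SLC6 carriers sit in the plasma membrane and use the inward gradients of sodium and chloride to move their substrate into the cell. In the nervous system they end the action of released transmitters and return them to neurons or glia, and in other settings they load cells with osmolytes and nutrients. In the retina, GABA is released mainly by amacrine and horizontal cells, taurine is held at high concentration by photoreceptors, which degenerate when they are deprived of it, and dopamine rather than noradrenaline is the main catecholamine.

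Libraries held 56497675 to 96635832 counts (59902546 to 74733202 in WT and 56497675 to 96635832 in SCA7), and 3 counts in a library corresponded to 0.0292 to 0.0563 CPM (counts scaled to library size with TMM factors). The tissue label matched its markers: 6 rod genes summed to 23500 to 25400 CPM in WT retina. All 6 of them and all 5 cone genes fell in SCA7 retina, and 5 of 6 reactive glia genes rose, by the edgeR test used throughout. Atxn7 itself was at 39.2 ± 4.26 CPM in WT mice (SD, n = 4) and averaged 37.6 ± 2.99 CPM in SCA7 (SD, n = 3), but gene counts cannot tell the allele with the expansion from the normal one.

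The 7 carriers divided into 3 patterns. Slc6a2, Slc6a8 and Slc6a15 were higher in each SCA7 mouse than in any WT mouse, Slc6a6 and Slc6a13 were lower in each SCA7 mouse than in any WT mouse, and the genotypes overlapped for Slc6a11 and Slc6a17. The genotypes thus did not overlap for 5 of 7, a separation met by 37.5% of the 20128 genes tested. For other genes, the fit across all genes called a gene upregulated at FC above 1.3 and downregulated at FC below 0.7, each with an adjusted p under 0.05 (edgeR quasi-likelihood test, Benjamini-Hochberg adjustment), and it called 15.4% of all tested genes, 7.47% upward and 7.91% downward. By these FC limits alone, with no test, 2 carriers lay above 1.3 (Slc6a2 and Slc6a15), 2 lay below 0.7 (Slc6a6 and Slc6a13) and 3 lay between, where 22.9% of all tested genes lay past these limits, 10.5% upward and 12.4% downward. Under scaling to total counts, Slc6a6 lay between the limits and Slc6a8 above 1.3. The median log2 FC was 0.09 over the 7 carriers and -0.02 over all genes tested.

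**Figure D1:**
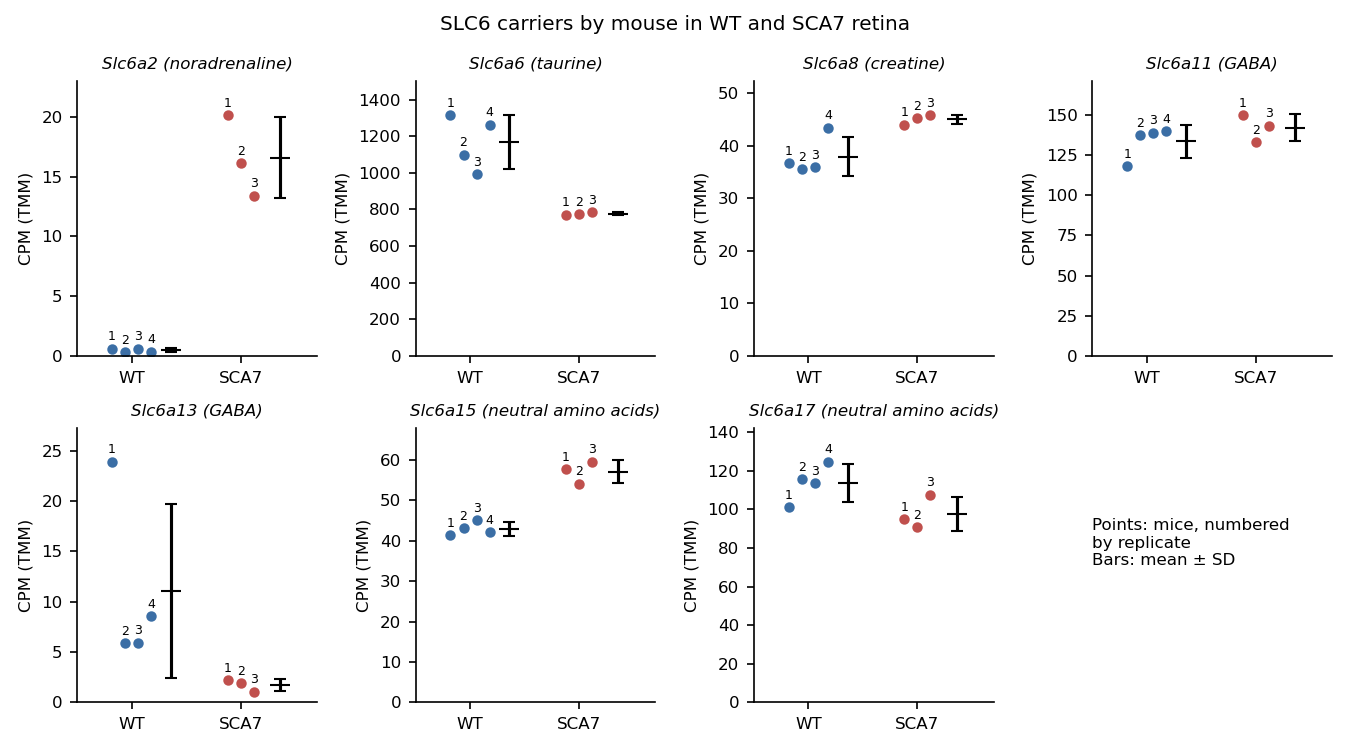
CPM (TMM scaling, linear axes from 0) of the 7 SLC6 carriers in each mouse, with WT in blue and SCA7 in red; points are mice numbered by replicate and bars are mean ± SD. Slc6a2 was below 0.62 CPM in each WT mouse and above 13 CPM in each SCA7 mouse, and WT replicate 1 stood at 23.9 CPM for Slc6a13.

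Slc6a2 encodes NET, the carrier that takes noradrenaline, and also dopamine, back into neurons. The gene lies on chromosome 8 (GRCm38, positions 92960079 to 93001667, plus strand). It was close to absent from WT retina, where the 4 libraries held 22 to 36 counts each, and it held 1240 to 1381 counts in the SCA7 libraries. In CPM, WT replicates 1 to 4 stood at 0.615, 0.308, 0.619 and 0.367. SCA7 replicates 1 to 3 stood at 20.2, 16.2 and 13.4. Every SCA7 mouse was thus far above every WT mouse, and the spread within either genotype was small beside the distance between them. The mean was 0.477 ± 0.163 CPM in WT (SD, n = 4) and 16.6 ± 3.38 CPM in SCA7 (SD, n = 3), an FC of 34.8 and a log2 FC of 5.14 ± 0.22 (SE). Only 5 of the 20128 tested genes had a larger log2 FC. Leaving out each mouse in turn gave a log2 FC between 4.97 and 5.30. Because these are bulk samples, a change in the number of cells that express a gene and a change in its RNA per cell cannot be told apart, for this carrier or any other below.

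Of 8 genes of catecholamine synthesis, storage and breakdown that were examined, 7 were tested, 0 were called upregulated by edgeR and 2 were downregulated. An unadjusted p under 0.05 was found for 3 of them, and DESeq2 called 2 genes of the list. The share of all tested genes under this unadjusted limit was not computed, here or for the lists below. Th, the rate-limiting enzyme of catecholamine synthesis, fell from 4.15 ± 0.70 to 2.84 ± 0.35 CPM (SD, log2 FC -0.54 ± 0.15, edgeR adjusted p = 0.017). Slc18a2, the vesicular monoamine transporter of neurons, fell from 4.90 ± 0.94 to 3.33 ± 0.34 CPM (log2 FC -0.55 ± 0.15, edgeR adjusted p = 0.015). Both calls depended on single mice. That of Th was lost without WT replicate 2 (-0.51), WT replicate 3 (-0.45), SCA7 replicate 1 (-0.46) or SCA7 replicate 2 (-0.53), and that of Slc18a2 without WT replicate 3 (-0.41) or SCA7 replicate 1 (-0.47). Both fell short of the call under total-count scaling, and the list then held 0 called genes.

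Dbh, the enzyme that makes noradrenaline from dopamine, was near the floor in both genotypes. It stood at 0.239, 0.112, 0.281 and 0.199 CPM in WT replicates 1 to 4 and at 0.065, 0.106 and 0.136 CPM in SCA7 replicates 1 to 3, from 4 to 15 counts a library (log2 FC -0.92 ± 0.40, edgeR adjusted p = 0.11). Without WT replicate 2 it was called downregulated (log2 FC -1.15). Pnmt, which makes adrenaline, was too low to test. Maoa, a monoamine oxidase that breaks down noradrenaline, was at 22.5 ± 1.69 CPM in WT mice and averaged 25.0 ± 1.83 CPM in SCA7 mice (edgeR adjusted p = 0.17).

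Of 5 markers of noradrenergic neurons that were examined, 3 were too low to test. Hand2, a transcription factor of these neurons, had 0 counts in all 7 libraries, which allows a level of up to 0.0563 CPM by counting error in WT replicate 3, which had the smallest library size after TMM scaling. Phox2a had 0 counts in all libraries but SCA7 replicate 1, which had 2, and Gata3 had at most 2. Of Gata2 and Prph, which were tested, only Prph was called. This intermediate filament gene rose from 4.21 ± 0.61 to 5.96 ± 0.61 CPM (log2 FC 0.50 ± 0.12, edgeR adjusted p = 0.010), and the call was lost without SCA7 replicate 1 (0.42, edgeR adjusted p = 0.063). The summed level of the 5 markers ranged from 4.56 to 5.83 CPM in WT and from 6.60 to 7.75 CPM in SCA7, nearly all of it Prph and Gata2.

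Among 8 adrenergic receptors that were examined, 7 were tested and 2 were downregulated, and the median log2 FC of those tested was -0.41. The β1 receptor Adrb1 changed most. It stood at 12.2, 13, 14.2 and 15.1 CPM in WT replicates 1 to 4 and at 4.99, 5.56 and 6.10 CPM in SCA7 replicates 1 to 3. All 3 SCA7 mice were thus below every WT mouse. The log2 FC was -1.29 ± 0.10 (edgeR adjusted p = 2.8e-06), and the call held with each mouse left out. Adra1a, an α1 receptor, fell from 1.38 ± 0.30 to 0.923 ± 0.147 CPM (log2 FC -0.58 ± 0.20, edgeR adjusted p = 0.047). Its call was lost without WT replicate 2 (-0.58) or 4 (-0.42), and without SCA7 replicate 1 (-0.60), 2 (-0.45) or 3 (-0.69), and also under total-count scaling (-0.39). A further 3 receptors (Adra1b, Adra2a and Adra2c) passed the adjusted p but not the FC limit, all with lower values in SCA7, and Adra1b was called downregulated without SCA7 replicate 3 (-0.595).

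The 5 genes whose pattern over the 7 libraries was nearest to that of Slc6a2 were Gm12802, Gje1, Aknaos, Tmem26 and Bcl3, out of 14713 candidates with a mean of at least 1 CPM. Likeness was the root mean square difference in log2 CPM after centring each gene on its own mean. It was 0.377 for Gm12802, 0.533 for Gje1, a connexin family gene, 0.536 for Aknaos, a noncoding gene antisense to Akna, 0.580 for Tmem26, a membrane protein gene, and 0.837 for Bcl3, a co-regulator of NF-kB. Tmem26 went from 3.61 ± 0.78 CPM in WT to 60.6 ± 0.80 CPM in SCA7. Gje1 went likewise from 0.476 ± 0.139 CPM in WT to 11.3 ± 1.299 CPM in SCA7. These genes were picked for a pattern that a difference between the genotypes dominates, so their own difference is not a separate result.

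Slc6a6 encodes the taurine carrier TauT. It lies on chromosome 6 (GRCm38, positions 91684053 to 91759066, plus strand), and mice without it lose their photoreceptors. It held 52858 to 82562 per WT library and 47501 to 80956 per SCA7 library. WT replicates 1 to 4 stood at 1315, 1100, 991 and 1263 CPM. SCA7 replicates 1 to 3 stood at 772, 775 and 787 CPM. The SCA7 mice were close together and all below the lowest WT mouse, while WT mice were spread more widely. The mean was 1167 ± 149 CPM in WT and 778 ± 7.96 CPM in SCA7, an FC of 0.666 and a log2 FC of -0.59 ± 0.10 (SE). The log2 FC ran from -0.66 to -0.52 with each mouse left out, and was -0.40 under total-count scaling, which raised the median of all tested genes from -0.02 to 0.17. Of the annotated genes that overlap Slc6a6, the antisense Gm44981 held 0 to 2 counts and Gm45828, in the same direction, held 29 to 108.

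Genes that make or carry taurine showed 2 changes in opposite directions among 7 tested. Slc16a6, a monocarboxylate transporter family member known to carry taurine and ketone bodies, stood at 97.6, 104.5, 95.7 and 105.3 CPM in WT replicates 1 to 4 and at 36.9, 39.7 and 46.2 CPM in SCA7 replicates 1 to 3. Its log2 FC of -1.30 ± 0.08 (edgeR adjusted p = 4.3e-07) stands beside -0.59 for Slc6a6, a difference that was not tested. Gadl1, a decarboxylase that acts on aspartate and on cysteine sulfinate, stood at 0.427, 0.643, 1.09 and 0.857 CPM in WT and at 2.36, 2.57 and 2.46 CPM in SCA7. It rose by a log2 FC of 1.72 ± 0.23 (edgeR adjusted p = 0.00018). For both genes the genotypes did not overlap, and both calls held with each mouse left out.

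The main route of taurine synthesis was not called. Cdo1, which oxidises cysteine to cysteine sulfinate, was at 4.24 ± 0.33 CPM in WT mice and averaged 3.62 ± 0.47 CPM in SCA7 mice (edgeR adjusted p = 0.17). Csad, which decarboxylates cysteine sulfinate, was at 17.9 ± 0.71 and 19.2 ± 0.55 CPM (edgeR adjusted p = 0.28). Ado, which makes hypotaurine from cysteamine, was at 55.9 ± 1.13 and 58.4 ± 1.23 CPM (edgeR adjusted p = 0.40). Fmo1 and Slc36a1 were not called either.

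The 5 genes nearest to Slc6a6 in pattern were 1600002K03Rik (root mean square log2 difference 0.037), Cacna1f (0.047), Gm48260 (0.050), Macf1 (0.050) and Ammecr1 (0.052). Cacna1f encodes the calcium channel pore subunit of photoreceptor synapses, and Macf1 a large linker of actin and microtubules. Cacna1f was at 187, 163, 142 and 199 CPM in WT replicates 1 to 4 and at 109.8, 112.5 and 114.3 CPM in SCA7 replicates 1 to 3. These genes were picked for their likeness to Slc6a6 over the same libraries, so their values are not a separate result. The rod markers, which moved in the same direction as Slc6a6, went from a sum of 23500 to 25400 CPM in WT to 7700 to 9900 CPM in SCA7 with a median log2 FC of -1.20, and the cone markers from 1020 to 1100 CPM to 140 to 150 CPM with a median of -1.82. Among the rod genes, log2 FC ran from -1.76 ± 0.11 for Gnat1, the rod transducin subunit, to -0.86 ± 0.11 for Nr2e3, a transcription factor of rods, with Pde6b, Cnga1, Nrl and Sag between them. Among the cone genes, it ran from -6.34 ± 0.32 for Opn1sw, the short-wavelength opsin, to -1.02 ± 0.09 for Cnga3, a channel subunit of cones, with Arr3, Gnat2 and Pde6c between them. The part of rods and cones in the lower level of Slc6a6 was not tested.

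Slc6a11 and Slc6a13 encode the GABA carriers GAT3 and GAT2. In the brain GAT3 is found mainly on astrocytes, and GAT2 mainly on the meninges. Both genes lie on the plus strand of chromosome 6 (GRCm38), Slc6a11 at positions 114131241 to 114249952 and Slc6a13 at 121300227 to 121337733. Their promoters (250 bases before to 50 after the RefSeq start, GRCm38.p6) are shown because these related carriers differed in their values by genotype. Capitals mark the only match in either promoter to the letters TAATCC, the homeodomain core bound by CRX, TGCTGA, a core bound by NRL, or TGACTCA, an AP-1 site, searched on both strands.
Slc6a11 at chr6:114130991-114131290, plus strand: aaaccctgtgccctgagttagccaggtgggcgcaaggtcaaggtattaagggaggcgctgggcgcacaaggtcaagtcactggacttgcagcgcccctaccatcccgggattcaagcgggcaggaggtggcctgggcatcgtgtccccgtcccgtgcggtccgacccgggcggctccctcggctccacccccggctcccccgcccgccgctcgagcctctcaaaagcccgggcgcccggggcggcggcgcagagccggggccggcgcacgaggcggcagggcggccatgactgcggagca
Slc6a13 at chr6:121300038-121300337, plus strand: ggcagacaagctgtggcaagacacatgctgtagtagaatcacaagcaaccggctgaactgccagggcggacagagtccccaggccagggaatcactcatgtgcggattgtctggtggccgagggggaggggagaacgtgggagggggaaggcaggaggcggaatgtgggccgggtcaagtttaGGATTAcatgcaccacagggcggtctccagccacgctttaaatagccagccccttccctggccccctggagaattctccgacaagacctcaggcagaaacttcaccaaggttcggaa

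GC content was 72.3% in the Slc6a11 promoter and 59% in that of Slc6a13. The match in Slc6a13 is the reverse complement of TAATCC, which 7.06% of 32817 RefSeq promoters of this length contain, against 19.5% for TGCTGA and 5.2% for TGACTCA. Of the 7 carriers, 3 had promoters in the table, with 6 starts in all. The remaining 4 starts, of Slc6a13 and Slc6a17, held 1 match, to TGACTCA in reverse complement at the start of Slc6a17. Slc6a2, Slc6a6, Slc6a8 and Slc6a15 had no entry.

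Slc6a11 did not separate the genotypes. WT replicates 1 to 4 stood at 118, 137, 139 and 140 CPM and SCA7 replicates 1 to 3 at 149.7, 133 and 143 CPM, so that SCA7 replicate 2 lay within the WT range. The mean was 134 ± 10.4 CPM in WT and 142 ± 8.44 CPM in SCA7, with a log2 FC of 0.09 ± 0.07 (SE). That value was 0.03 without WT replicate 1, the lowest mouse, and 0.28 under total-count scaling.

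Slc6a13 was lower in SCA7, by an amount that rested in part on 1 WT mouse. WT replicates 1 to 4 stood at 23.9, 5.87, 5.95 and 8.58 CPM, from 317 to 1400 counts. SCA7 replicates 1 to 3 stood at 2.18, 1.92 and 1.08 CPM, from 111 to 164 counts. Each SCA7 mouse was below each WT mouse, but WT replicate 1 was 4.02 times the median of the other 3 WT mice. The mean was 11.1 ± 8.65 CPM in WT and 1.73 ± 0.58 CPM in SCA7, with an FC of 0.156 and a log2 FC of -2.70 ± 0.71 (SE). Without WT replicate 1 the WT mean was 6.80 ± 1.54 CPM (SD, n = 3), the FC was 0.254 and the log2 FC was -2.001. Among all genes tested, 0.442% varied more than Slc6a13 between WT mice by coefficient of variation, which was 78.1% for this gene.

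The 5 genes nearest to Slc6a13 over the 7 libraries were Fbln1 (root mean square log2 difference 0.416), Penk (0.425), Gpx3 (0.450), Mfap4 (0.525) and Gm33843 (0.538). Fbln1 and Mfap4 encode proteins of the extracellular matrix, Gpx3 a secreted glutathione peroxidase and Penk the precursor of enkephalins. The measure of likeness takes in the high value of WT replicate 1, so that their values in that mouse are not a separate result. That mouse stood at 38.6 CPM for Fbln1, where the other 3 WT mice ranged from 3.86 to 12.2 CPM. It stood at 43.8 CPM for Penk against 8.29 to 19.3 CPM, and at 50.0 CPM for Gpx3 against 5.84 to 15.7 CPM. The ratio of WT replicate 1 to the median of the other WT mice was 4.64 for Fbln1, 3.62 for Penk, 3.71 for Gpx3, 4.06 for Mfap4 and 1.75 for Gm33843, beside 4.02 for Slc6a13.

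**Figure D2:**
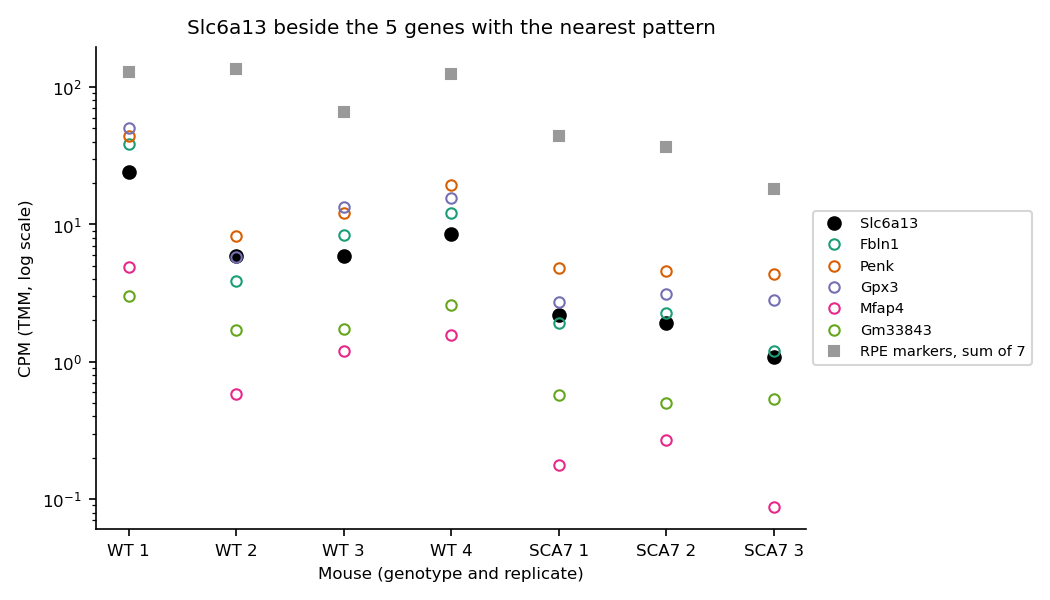
CPM (log axis) of Slc6a13 (filled black circles), of the 5 genes nearest to it in pattern (open circles) and of the sum of 7 markers of the retinal pigment epithelium (grey squares) in each mouse. Slc6a13, Fbln1, Penk, Gpx3, Mfap4 and Gm33843 were highest in WT replicate 1, whereas the summed pigment epithelium markers were lowest among WT mice in replicate 3.

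Markers of tissues next to the neural retina were set beside Slc6a13. The 7 markers of the retinal pigment epithelium summed to 130, 136, 66.4 and 125 CPM in WT replicates 1 to 4 and to 44.4, 36.8 and 18.0 CPM in SCA7 replicates 1 to 3. Rpe65, Lrat and Ttr of this list fell, and Ttr, from 69.0 ± 19.2 to 15.4 ± 6.51 CPM, was the main part of the lower sum. Best1, Tyrp1, Mlana and Slc26a7 were not called, and the first 3 of these had higher means in SCA7, with log2 FC of 0.08 ± 0.20, 0.51 ± 0.49 and 0.56 ± 0.47. Without SCA7 replicate 2, the calls of Rpe65 (log2 FC -2.31) and Ttr (-2.23) were lost. The 6 markers of fibroblasts and meninges summed to 27.7 to 34.8 CPM in WT and 33.1 to 40.5 CPM in SCA7. From this list 1 marker, Pdgfra, rose, from 15.1 ± 1.07 to 23.1 ± 2.97 CPM, and it was the main part of the higher sum. The other 5 were not called, 4 of the 6 had lower values in SCA7, and the median log2 FC of the list was -0.22. WT replicate 1 was not the highest WT mouse for either sum, but it was the highest for Col1a2 of the fibroblast list, at 9.70 CPM against 4.95 to 5.98 CPM. The part of these tissues in the values of Slc6a13 was not tested.

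None of the 6 genes of GABA synthesis, storage and breakdown was called by edgeR, or by DESeq2. An unadjusted p under 0.05 was found for 5 of them, a count with no share over all tested genes beside it. Gad1, a glutamate decarboxylase that makes GABA, was at 270.0 ± 24.2 CPM in WT mice and averaged 209 ± 11.4 CPM in SCA7 mice (log2 FC -0.37 ± 0.08, edgeR adjusted p = 0.0044), within the FC limits. Glul, the glutamine synthetase of Müller glia, was at 2928 ± 314 and 2287 ± 79.1 CPM (log2 FC -0.36 ± 0.09, edgeR adjusted p = 0.013), also within them. Gad2, Slc32a1, Abat and Aldh5a1 had adjusted p-values from 0.069 to 0.51. Of 6 amacrine cell markers none was called, 3 of them with an adjusted p under 0.05, and their sum was 308 to 352 CPM in WT and 269 to 295 CPM in SCA7 with a median log2 FC of -0.25. Under total-count scaling these 3 markers had log2 FC of -0.06 (Tfap2c), -0.06 (Pax6) and -0.09 (C1ql2) with edgeR adjusted p-values from 0.27 to 0.57, and Gad1 (-0.18) and Glul (-0.17) also missed the adjusted p.

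Slc6a8 encodes the creatine carrier and lies on chromosome X (GRCm38, positions 73673150 to 73682502, plus strand). WT replicates 1 to 4 stood at 36.7, 35.6, 35.99 and 43.5 CPM, and SCA7 replicates 1 to 3 at 44.1, 45.3 and 45.9 CPM. The genotypes did not overlap, but WT replicate 4 came within 1 CPM of the lowest SCA7 mouse. The mean was 37.9 ± 3.73 CPM in WT and 45.1 ± 0.92 CPM in SCA7, an FC of 1.19 and a log2 FC of 0.25 ± 0.07 (SE). Under total-count scaling the log2 FC was 0.44.

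The 6 genes of creatine synthesis and creatine kinases gave 5 tested, 1 upregulated and 2 downregulated. Ckmt1, a mitochondrial creatine kinase, stood at 132, 149.6, 146 and 144 CPM in WT replicates 1 to 4 and at 73.1, 80.5 and 82.0 CPM in SCA7 replicates 1 to 3. It fell by a log2 FC of -0.86 ± 0.07 (edgeR adjusted p = 2.7e-06), and the call held with each mouse left out. Ckm, the muscle-type kinase, was low in retina and fell from 0.523 ± 0.165 to 0.239 ± 0.019 CPM (log2 FC -1.14 ± 0.29, edgeR adjusted p = 0.011), a call lost without SCA7 replicate 3 (-1.09, edgeR adjusted p = 0.050). Gatm, the first enzyme of creatine synthesis, rose from 1.62 ± 0.29 to 2.32 ± 0.11 CPM (log2 FC 0.53 ± 0.15, edgeR adjusted p = 0.023). Its call was lost without WT replicate 1 (0.52) or 2 (0.42) and without SCA7 replicate 1 (0.54), 2 (0.49) or 3 (0.56). Ckb, the cytosolic brain-type kinase, was at 1228 ± 166 and 1542 ± 39.9 CPM (log2 FC 0.33 ± 0.10, edgeR adjusted p = 0.024), within the FC limits, but was called upregulated without WT replicate 3 (0.43) or under total-count scaling (0.52).

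Slc6a15 and Slc6a17 encode carriers of neutral amino acids such as leucine and proline. Slc6a15 (B0AT2) works at the plasma membrane of neurons, and Slc6a17 (NTT4) on synaptic vesicles. Slc6a15 lies on chromosome 10 (GRCm38, positions 103367783 to 103419377, plus strand) and Slc6a17 on chromosome 3 (positions 107467543 to 107518018, minus strand). Slc6a15 stood at 41.3, 43.2, 45.2 and 42.1 CPM in WT replicates 1 to 4 and at 57.7, 54.1 and 59.5 CPM in SCA7 replicates 1 to 3. It had the smallest spread of the 7 carriers among WT mice, with a coefficient of variation of 3.89%, and all SCA7 mice were above all WT mice. The mean was 42.9 ± 1.67 CPM in WT and 57.1 ± 2.78 CPM in SCA7, an FC of 1.33 and a log2 FC of 0.41 ± 0.06 (SE).

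Slc6a17 stood at 101, 116, 114 and 125 CPM in WT replicates 1 to 4 and at 94.99, 90.8 and 108 CPM in SCA7 replicates 1 to 3. SCA7 replicate 3 lay within the WT range. The mean was 114 ± 9.76 CPM in WT and 97.8 ± 8.77 CPM in SCA7, with a log2 FC of -0.22 ± 0.08 (SE), and under total-count scaling the log2 FC was -0.03. Of 10 other neutral amino acid carriers and branched-chain transaminases, all tested, only Slc7a8 was called. This gene, for the light chain LAT2 of a heteromeric amino acid exchanger, stood at 14.3, 15.8, 13.97 and 15.7 CPM in WT and at 21.3, 20.5 and 23.0 CPM in SCA7 (log2 FC 0.53 ± 0.07, edgeR adjusted p = 0.00021). Bcat2, the mitochondrial branched-chain transaminase, was at 13.2 ± 1.39 and 9.78 ± 0.49 CPM (log2 FC -0.43 ± 0.09, edgeR adjusted p = 0.0041), within the FC limits, and its cytosolic counterpart Bcat1 had an adjusted p of 0.052 with a log2 FC of 0.20 ± 0.07.

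**Figure D3:**
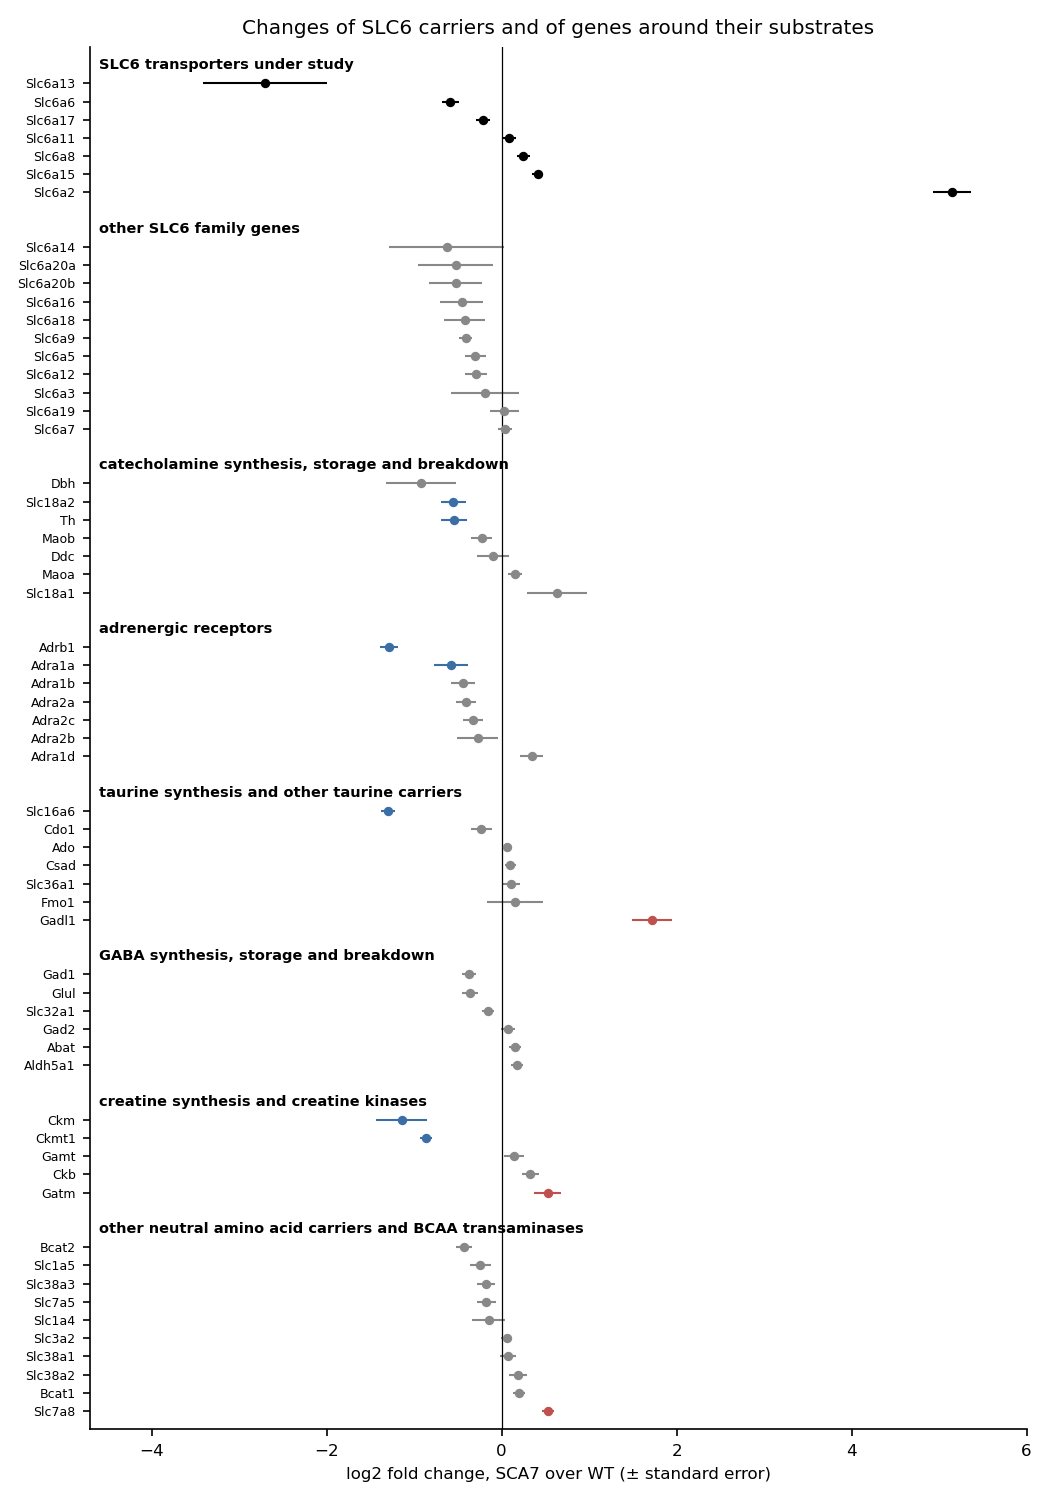
Log2 FC (SCA7 over WT) ± SE for the 7 SLC6 carriers (black), 11 other tested SLC6 genes and 6 lists of genes that make, store, sense, use or break down their substrates. Red and blue points were called upregulated and downregulated by edgeR and grey points were not called; the carriers in black carry no test. Slc6a2, at 5.14, and Slc6a13, at -2.70, lay farthest from 0.

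Levels of different genes were compared per kilobase of transcript (RPK, counts over DESeq2 size factors and over transcript length). With the median annotated transcript length, the order in WT retina was Slc6a6 (144100 RPK, range over the 4 mice 122100 to 162200), Slc6a17 (4454, 3953 to 4886), Slc6a11 (3579, 3159 to 3744), Slc6a8 (1623, 1528 to 1860), Slc6a15 (1217, 1169 to 1276), Slc6a13 (790.0, 421 to 1704) and Slc6a2 (5.40, 3.497 to 6.99). Ranges of neighbours in this order did not overlap, except that Slc6a13 spanned those of Slc6a15 and part of that of Slc6a8. The length used mattered most for Slc6a6, whose 11 annotated transcripts have a median length of 0.559 kb and whose exons cover 8.457 kb. With the covered exon length Slc6a6 was at 9528 RPK and still first, and Slc6a11 (1825 RPK) stood above Slc6a17 (763 RPK), in the reverse of their order by median transcript length.

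On the covered exon length, 19 SLC6 genes were set side by side. Slc6a2 was the 16th of these in WT retina, at 5.23 ± 1.78 RPK (SD, n = 4), and the 7th in SCA7 retina, at 184 ± 37.4 RPK (SD, n = 3). Slc6a13 went from the 7th place, at 263 ± 205 RPK, to the 11th, at 41.4 ± 13.7 RPK. Slc6a6 was first in both genotypes and made up 60.6 ± 2.91% of the summed level of the 19 genes in WT and 52.3 ± 0.946% in SCA7. The share of Slc6a2 was 0.0337 ± 0.0127% in WT and 1.5 ± 0.305% in SCA7.

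**Figure D4:**
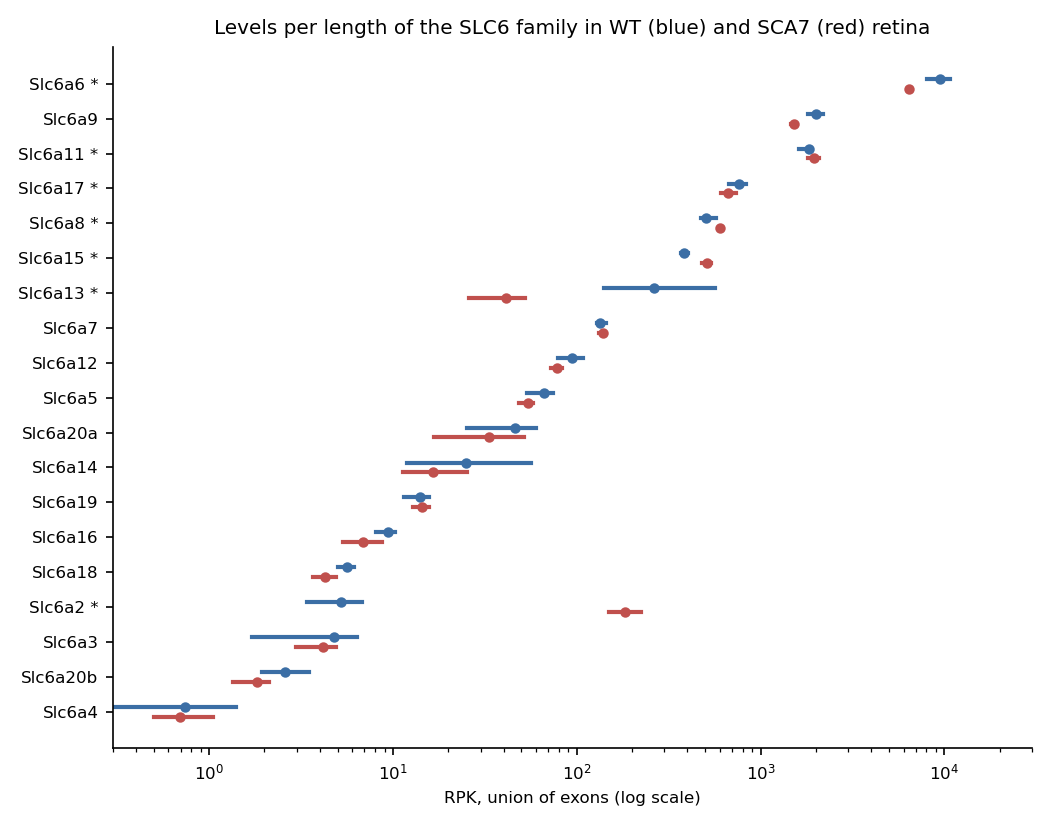
Level per kilobase of covered exon (RPK, log axis) of 19 SLC6 genes in WT (blue) and SCA7 (red) retina, ordered by the WT mean; points are means, lines run from the lowest to the highest mouse and asterisks mark the 7 carriers described in full. Slc6a2 lay at 5.23 RPK in WT and 184 RPK in SCA7; the WT line of Slc6a4 starts at the edge of the axis because 1 WT library had no count.

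None of the 12 other SLC6 genes examined was called by edgeR. Of the 11 tested, 3 had an unadjusted p under 0.05, 9 had lower and 2 had higher values in SCA7, and their median log2 FC was -0.41, while DESeq2 called 0 as well. Slc6a9, the glycine carrier GlyT1, was at 136, 157, 143 and 163 CPM in WT replicates 1 to 4 and at 114, 108 and 116 CPM in SCA7 replicates 1 to 3. Its genotypes did not overlap and its adjusted p was 0.0013 (edgeR), with a log2 FC of -0.41 ± 0.07 that missed the FC limit. Its exons share 1429 bases with those of Ccdc24 on the opposite strand, and the strand setting of the counting was not given in the sources used here.

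Other carriers of the family for GABA or monoamines were examined next. Slc6a12, the betaine and GABA carrier BGT1, was at 4.18 ± 0.59 CPM in WT mice and averaged 3.40 ± 0.22 CPM in SCA7 mice (log2 FC -0.29 ± 0.13, edgeR adjusted p = 0.11). Slc6a3, the dopamine carrier DAT, was at 0.240 ± 0.108 and 0.208 ± 0.054 CPM (log2 FC -0.19 ± 0.39, edgeR adjusted p = 0.75). Slc6a4, the serotonin carrier, was too low to test, at 0 to 0.0918 CPM.

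Among other genes of the family, the proline carrier Slc6a7 was at 6.71 ± 0.31 CPM in WT mice and averaged 6.90 ± 0.31 CPM in SCA7 mice (edgeR adjusted p = 0.77). The glycine carrier Slc6a5 (GlyT2) was at 6.92 ± 0.93 and 5.61 ± 0.54 CPM (edgeR adjusted p = 0.079). Slc6a14, a carrier of neutral and basic amino acids, had a log2 FC of -0.63 ± 0.66 (edgeR adjusted p = 0.53) that rested on WT replicate 2 and was 0.16 without it. Slc6a16, Slc6a18 and Slc6a19 had mean levels between 0.271 and 1.04 CPM and log2 FC of -0.46 ± 0.24, -0.42 ± 0.24 and 0.03 ± 0.17. Slc6a20a and Slc6a20b, related copies whose sharing of reads was not measured, had log2 FC of -0.53 ± 0.43 and -0.52 ± 0.30. Slc6a20b also overlaps Sacm1l on the opposite strand.

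Glial and vascular markers were compared beside the carriers that were higher in SCA7. Of 6 reactive glia genes, Gfap, Serpina3n, Cd44, Edn2 and Osmr rose and Lcn2 was not called, with a sum of 39.3 to 54.2 CPM in WT and 198 to 222 CPM in SCA7 and a median log2 FC of 1.97. Of 6 Müller glia genes Vim rose and 5 were not called. The 6 genes summed to 1850 to 2160 CPM in WT and 1990 to 2100 CPM in SCA7, with a median log2 FC of 0.25. Aqp4 (log2 FC 0.31 ± 0.07, edgeR adjusted p = 0.0063) and Kcnj10 (0.33 ± 0.09, edgeR adjusted p = 0.016) passed the adjusted p but not the FC limit. Both were called upregulated under total-count scaling. Kcnj10 was also called without WT replicate 4 and with the replicate number as a block. Of 8 genes of endothelium and pericytes, Cdh5, Kdr and Abcc9 rose and 5 were not called. Pdgfrb (log2 FC 0.34 ± 0.10, edgeR adjusted p = 0.028) and Rgs5 (0.28 ± 0.06, edgeR adjusted p = 0.0061) passed the adjusted p but not the FC limit. Both were called upregulated under total-count scaling. Pdgfrb was also called without WT replicate 4 or SCA7 replicate 3, with the replicate number as a block, and with Xist as a covariate. The 8 genes summed to 241 to 284 CPM in WT and 329 to 372 CPM in SCA7, with a median log2 FC of 0.31. Kdr was the main part of this difference, at 106 ± 18.2 CPM in WT mice against 171 ± 27.4 CPM in SCA7 mice. Cldn5, a tight junction gene of endothelium, lay in the opposite direction, with all SCA7 mice below all WT mice and a log2 FC of -0.48 ± 0.12 (edgeR adjusted p = 0.011) that missed the FC limit. Cldn5 was called downregulated without WT replicate 4 (-0.58) and with the replicate number as a block (-0.58). The part of these cells in the higher levels of Slc6a2, Slc6a8 and Slc6a15 was not tested.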

How the data were processed

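Total RNA from both retinas of each of 7 mice (4 WT, 3 SCA7_KI_homo) was depleted of ribosomal RNA and made into stranded libraries. Per the labels and the submitters' processing notes, the authors aligned reads to mm10 with TopHat2 2.0.14 and Bowtie2 2.1.0 and counted them with HTSeq 0.6.1, and they deposited raw counts per gene. The strand setting of HTSeq was not given in the sources used here. Reads shared by overlapping genes can therefore be split or lost. Sharing of reads between related gene copies was not measured.

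Ensembl identifiers were matched to GENCODE M21 (GRCm38) for 52403 of 52550 genes. Counts were filtered with filterByExpr, which kept 20128 genes, scaled by TMM and tested with edgeR 4.0.16 (robust quasi-likelihood, limma 3.58.1, R 4.3.3), WT against SCA7_KI_homo, with Benjamini-Hochberg adjustment over all genes kept. The limits were an adjusted p of 0.05 and an FC of 0.7 or 1.3. DESeq2 1.42.0 gave an alternative test and the size factors for RPK, and the self-test ran the fit on simulated counts. CPM of likeness used a prior count of 0.5. Library totals of 56497675 to 96635832 set the precision, and p-values measure the spread between mice of 1 experiment.

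The 7 carriers and the lists (6 of substrate pathways, 9 of cell types) were chosen with earlier results of these data known, and some genes are not reported here and were left out of every list count, sum and rank. Named were the 7 carriers, the other SLC6 genes examined, every called gene of a list with those that bear on a carrier, and the 5 genes nearest in pattern to Slc6a2, Slc6a6 and Slc6a13. Alternatives changed the scaling, test, filter, thresholds, covariates and mice. Promoter sequences came from RefSeq (GRCm38.p6). Replicates differed by more than sampling noise (chi-square per degree of freedom 10.3 to 97.9), so each library was kept as 1 replicate.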

Additional observations from a re-analysis of the deposited data

Results flagged for a closer look

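Levels of 64 genes of the SLC6 family and of the substrate pathways were examined for a WT mouse far from the other 3, by Dixon's criterion for the ratio of the gap to the range (4 samples), and 5 passed it. Chance gives about 1 in 20 groups.

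Slc6a13 was at 23.9 CPM in WT replicate 1, with the remaining WT mice between 5.87 and 8.58 CPM (gap over range 0.85). Slc6a11 was at 118 CPM in the same mouse, against 137 to 140 CPM (0.894), and Gad1 at 234 CPM, against 279.5 to 285 CPM (0.896). WT replicate 1 was the lowest WT mouse for every gene of the GABA list. Among the carriers it was the lowest for Slc6a11, Slc6a15 and Slc6a17 and the highest for Slc6a6 and Slc6a13. For Slc6a2 and Slc6a8 it lay between the other WT mice. Slc6a8 was at 43.5 CPM in WT replicate 4, against 35.6 to 36.7 CPM (0.86). Ado was at 57.6 CPM in WT replicate 2, against 55.2 to 55.5 CPM (0.893), a gap of a few percent of its level.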

How the results depend on the processing

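No carrier changed the sign of its log2 FC in any of 14 alternatives. Total-count scaling, which moved the median of all tested genes from -0.02 to 0.17, moved Slc6a6 to -0.40, Slc6a8 to 0.44, Slc6a11 to 0.28, Slc6a15 to 0.60 and Slc6a17 to -0.03, so that Slc6a6 came inside the FC limits and Slc6a8 passed the upper one. Under it 978 genes were downregulated and 3681 upregulated, in place of 1592 and 1504, the catecholamine list held 0 called genes and the neutral amino acid list 2. With no FC limit 2852 genes were down and 2853 up, and the other SLC6 genes held 1 call, adrenergic receptors 5, the GABA list 2 and the neutral amino acid list 2. At an adjusted p under 0.01, catecholamine genes held 0 calls, adrenergic receptors 1 and creatine genes 1. Adrenergic receptors also held 1 call with DESeq2 size factors in edgeR.

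With each mouse left out, calls ranged from 0 to 2 for catecholamine genes, from 1 to 2 for adrenergic receptors and from 1 to 4 for creatine genes, over all genes from 1196 to 1731 down and from 1215 to 1559 up. Log2 FC ranged from -1.08 to 0.16 for Slc6a14, positive without WT replicate 2, and from -0.049 to 0.10 for Slc6a19, negative without WT replicate 1 or SCA7 replicate 3 (-0.03). Per kilobase of covered exon, the WT levels were 9528 RPK for Slc6a6, 502 for Slc6a8, 1825 for Slc6a11, 382 for Slc6a15 and 763 for Slc6a17. The cause of these shifts was not tested, except that the length itself sets the last of them.

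Deviations of same-numbered mice correlated at r = 0.01, 0.197 and 0.079. Not every pair passed 0.1, so the numbers were not taken to pair the mice, although 0.197 was the highest of the 12 combinations and same-numbered mice have nearby animal numbers in their titles. With the replicate number as a block, 1706 genes were down and 1629 up, and adrenergic receptors held 1 call, as did the other SLC6 genes (Slc6a14). Among the 7 carriers, depth limits Slc6a2 in WT most, at 22 to 36 counts a library.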

Other observations

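Slc6a13 and Slc6a12 are neighbours on chromosome 6, with 5342 bases between them. Slc6a13 had a log2 FC of -2.70 ± 0.71 beside -0.29 ± 0.13 for Slc6a12, and WT replicate 1, which stood at 23.9 CPM for Slc6a13, stood at 4.78 CPM for Slc6a12, where the other WT mice ranged from 3.47 to 4.51 CPM. The difference between the neighbours was not tested.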
